A study of Mus musculus with 9 samples.

Results

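Plasmacytoid dendritic cells (pDCs) and conventional dendritic cells (cDCs) are kept apart by a small set of transcription factors, and 10 genes that encode them were measured here in R848-stimulated pDCs. They comprised 7 factors that set or keep pDC fate (*Tcf4*, *Spib*, *Runx2*, *Bcl11a*, *Zeb2*, *Cbfa2t3* and *Ikzf1*) and 3 factors of cDC fate (*Id2*, *Zbtb46* and *Nfil3*), chosen by gene symbol out of the 52550 genes listed. The study sorted splenic pDCs from C57BL/6 mice carrying the WT *Ncf1* allele (G/G) or a CRISPR/Cas9 knock-in of p.R90H in heterozygous (G/A) or homozygous (A/A) form. All 9 samples, 3 of each of the 3 genotypes, were cultured with R848, a TLR7/-8 ligand, for 12 hours, and no unstimulated group was among them. The levels below come from 1 library, A/A replicate 1; G/G, G/A and the remaining A/A libraries, 8 in all, were not analysed here. They therefore carry no replicate error and no test, and genotypes were not compared. The knock-in allele was present in every cell of the mouse and not in pDCs alone. The cells had been gated by flow cytometry as CD11c-intermediate, SiglecH-positive and PDCA1-positive.

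Reads assigned to the listed genes of this library summed to 31408298, and 17664 of the listed genes had reads. Of the 52403 genes matched to the annotation, 33.6% had reads. The 9 pDC markers read here (*Siglech*, *Bst2*, *Ly6d*, *Ccr9*, *Klk1*, *Cox6a2*, *Pacsin1*, *Ptprs* and *Ly6c2*) all had reads, including the gated *Siglech* and *Bst2* (PDCA1). Their median was 374 reads per 1000000 reads assigned to genes (CPM), which was the value of *Siglech*, between 46.2 for *Klk1* and 1716 for *Ly6d*. The 6 cDC1 markers had a median of 14.7 CPM, between 1.72 for *Xcr1* and 96.9 for *Cadm1*. In CPM, which leaves gene length out, the ranges overlapped. *Klk1*, *Cox6a2* (65.6), *Ptprs* (85.5) and *Pacsin1* (88.6) lay below *Cadm1* and the remaining pDC markers above it. In reads per kilobase of exon the order differed, and *Clec9a* (705) was the highest cDC1 marker. On that scale only *Ptprs* (179) and *Pacsin1* (427) among the pDC markers lay below *Clec9a*. Of the 5 cDC2 markers read by a unique symbol, *Sirpa* had 67.5 CPM, the other 3 with reads had at most 2.36 CPM, and *Cd209a* was listed at 0. The mature dendritic cell markers *Ccr7*, *Ccl22* and *Fscn1* had 3689, 1347 and 428 CPM. Of the 3 transitional dendritic cell markers *Axl* had 2252 CPM, *Lyz2* 207 and *Cx3cr1* 27.2. The methods describe female mice, whereas *Xist* was listed at 0 and the Y-linked gene *Ddx3y* had 102 CPM in this library. In bulk RNA, fewer cells of a type and less RNA in each cell cannot be told apart.

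pDCs are dendritic cells specialised for type I interferon release, and the E protein TCF4 (E2-2) keeps their identity by binding E-box motifs in pDC genes. ID2, an inhibitor that pairs with E proteins but has no DNA-binding domain, opposes TCF4, and loss of TCF4 lets pDCs take on cDC features. SPIB, RUNX2, BCL11A, ZEB2, the corepressor CBFA2T3 (ETO2) and IKZF1 act with or beside TCF4, whereas ZBTB46 marks the cDC lineage and NFIL3 is needed for cDC1 development.

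Because E proteins bind the E-box and ID2 keeps them off it, the 250 bases before the RefSeq start sites (GRCm38.p6) were searched for its letters, CANNTG, on both strands. Sequences were matched for 9 of the 10 factors, with 14 start sites in all, and an E-box was found before 8 of these start sites, in 7 of the 9 factors. The same letters occurred in 66.2% of all 32851 promoters of this length, so a match was common. The windows of the highest pDC-fate factor, *Spib*, and of the highest cDC-fate factor, *Id2*, are shown 5′ to 3′ on the minus strand, with the E-boxes in capitals and limited to bases outside every annotated exon. The *Spib* window (chr7:44532072-44532321) covered all 250 bases up to the start site and lay outside the gene. The *Id2* window (chr12:25096254-25096342) covered the outer 89 bases, which lie in an intron of a longer annotated *Id2* transcript.
Spib: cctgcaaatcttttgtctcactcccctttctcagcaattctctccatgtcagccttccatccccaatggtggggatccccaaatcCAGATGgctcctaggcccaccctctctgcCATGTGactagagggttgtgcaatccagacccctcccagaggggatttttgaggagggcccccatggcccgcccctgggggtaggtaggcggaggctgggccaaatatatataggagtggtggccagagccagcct
Id2: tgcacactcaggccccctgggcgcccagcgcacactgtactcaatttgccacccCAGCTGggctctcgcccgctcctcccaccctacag
*Spib* held 2 E-boxes, which began at positions -165 and -136 from the start site, and 58% of its bases were G or C. *Id2* held 1 E-box, at position -196, in a stretch with 67.4% G or C. *Zbtb46* had 5 matches, *Cbfa2t3* had 4 and 1 before its 2 start sites, *Runx2*, *Bcl11a* and *Nfil3* had 1 each, and *Zeb2* and *Ikzf1* had none. A RUNX motif (TGTGGT, both strands; 14.0% of all promoters) was found before *Runx2* alone among the 9 factors, and it shared 4 bases with the E-box there. An ETS motif (GGAAGT; 19.7% of all promoters) was found before 1 *Cbfa2t3* start site, and the NFIL3 motif TTATGTAA (0.819% of all promoters) was found before none. These matches describe letters and not bound sites.

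All 10 factors had reads, from 799 for *Nfil3* to 71878 for *Spib*. By comparison, 55.9% of 21819 protein-coding genes had reads. Levels were compared between genes as reads per kilobase of exon, using the union of all annotated exons. Their Wilson 95% confidence intervals come from 1 library and cover counting error only. The intervals may be too narrow even for that, because reads copied by PCR and lacking molecular identifiers need not stand for separate molecules. Per kilobase of exon *Spib* came first at 25062, followed by *Id2* at 1868 and *Runx2* at 673. *Ikzf1* (413), *Tcf4* (410.5), *Nfil3* (394) and *Zbtb46* (390.1) followed as a group in which each neighbour's interval overlapped the next. *Bcl11a* (216), *Zeb2* (143) and *Cbfa2t3* (123) came last, each with an interval apart from the next. All 10 levels lay above 59.6 reads per kilobase, the median of genes with reads, by 2.07-fold (*Cbfa2t3*) to 420-fold (*Spib*). The median of protein-coding genes with reads was 120 reads per kilobase, and *Cbfa2t3*, at percentile 50.5 of those genes, was close to it.

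**Figure D1:**
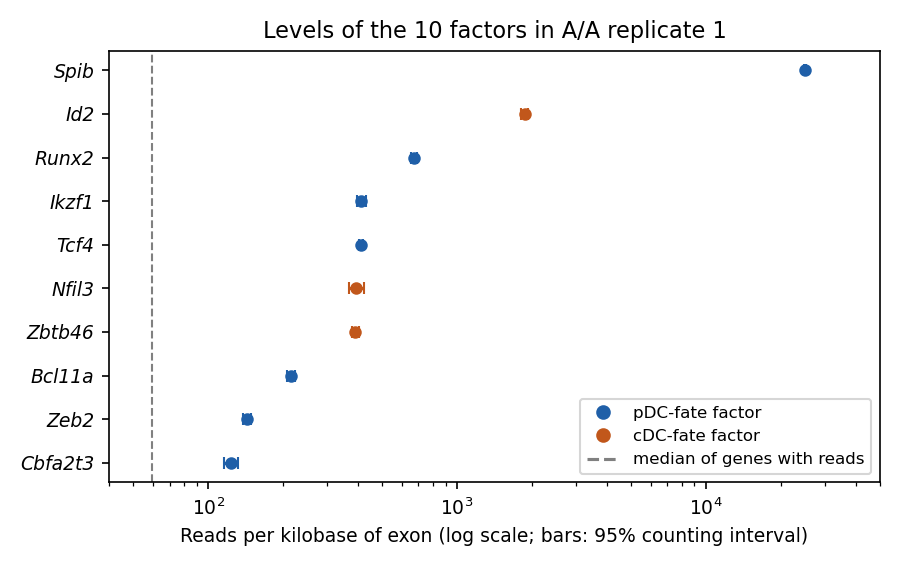
Reads per kilobase of exon (horizontal log axis) of the 10 factors in A/A replicate 1, with 95% counting intervals; blue marks pDC-fate and orange cDC-fate factors, and the dashed line is the median of genes with reads (59.6). *Spib* stands 13.4-fold above *Id2*, 4 factors lie together between 390.1 and 413, and all 10 lie right of the dashed line.

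The 2 groups of factors did not separate by level. The median of the 7 pDC-fate factors was 410.5 reads per kilobase (percentile 81.4 among genes with reads). That of the 3 cDC-fate factors was 394 (percentile 80.9), a ratio of 1.04. Dividing the groups' median lower and upper 95% bounds crosswise gave a range of 0.940 to 1.11, which is not itself a 95% interval. The ratio was below 1 on the other scales, at 0.760 by longest transcript, 0.807 by coding sequence and 0.861 in CPM. Here and below, the longest-transcript and coding-sequence scales divide all reads of a gene by that length, wherever the reads fell. The pDC-fate factors summed to 3126 CPM and the cDC-fate factors to 276 CPM, but *Spib* alone held 67.3% of the 106857 reads of the 10 genes. *Id2* was above 6 of the 7 pDC-fate factors and below *Spib*. *Zbtb46* and *Nfil3* were each below *Spib* and *Runx2*, had intervals that overlapped those of *Tcf4* and *Ikzf1*, and were above *Bcl11a*, *Zeb2* and *Cbfa2t3*.

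**Figure D2:**
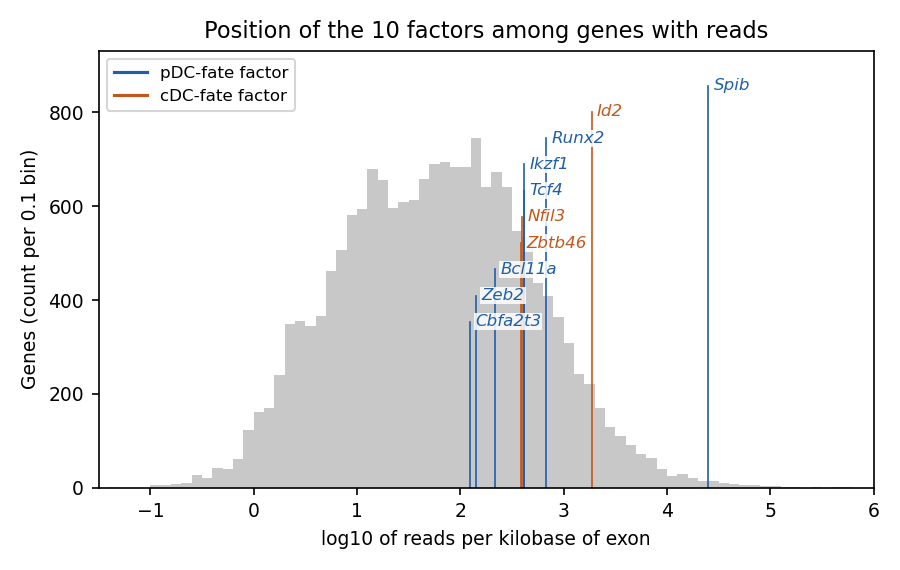
Number of genes (vertical axis) by log10 of reads per kilobase of exon (horizontal axis, bins of 0.1) for genes with reads, with the 10 factors as lines of arbitrary height (blue, pDC-fate; orange, cDC-fate). *Spib* (percentile 99.7) and *Id2* (percentile 95.01) lie in the upper tail, and the other 8 lie between percentiles 62.3 and 87.3.

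*Tcf4* (ENSMUSG00000053477.16, chromosome 18, 69343356 to 69689079, plus strand), the E protein gene, had 11239 reads and a level of 358 CPM (95% CI, 351 to 365). Its level was 410.5 reads per kilobase of exon (95% CI, 403 to 418), at percentile 81.4. This value depended on the length more than that of any other factor, because the 62 annotated *Tcf4* transcripts cover 27382 exon bases, 3.19 times the longest transcript. Divided by the 8577 bases of the longest transcript, the same 11239 reads gave *Tcf4* 1310.4 reads per kilobase. It then took rank 3 of the 10 rather than rank 5.

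*Id2* (ENSMUSG00000020644.9, chromosome 12, 25093799 to 25097140, minus strand) had 4555 reads, 145 CPM (95% CI, 141 to 149) and 1868 reads per kilobase of exon (95% CI, 1815 to 1923). Per kilobase of exon, *Id2* was 4.55-fold above *Tcf4* (95% CI, 4.40 to 4.71). Per kilobase of longest transcript the difference was 1.77-fold in the same direction (95% CI, 1.71 to 1.83), whereas in CPM, with no length, *Tcf4* was 2.47-fold above *Id2*. On each scale that took length into account, *Id2* was thus above *Tcf4* in cells gated as pDCs. *Id2* is also a gene of cDCs, NK cells and innate lymphoid cells. Of the NK and innate lymphoid markers *Ncr1*, *Klrb1c* and *Eomes* were listed at 0, *Gata3* had 0.159 CPM and *Il7r* had 174 CPM. The cDC1 and cDC2 markers reached 96.9 CPM (705 reads per kilobase of exon, for *Clec9a*) and the mature dendritic cell marker *Ccr7* 3689 CPM. Whether the *Ccr7* reads came from the stimulated pDCs or from other cells was not tested. The part of cDCs and of *Il7r*-expressing cells in the *Id2* level was not tested either.

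The paralogs of this pair were read in the same library. *Tcf3*, which encodes the E protein E2A, had 510.03 reads per kilobase of exon, and *Tcf12*, which encodes HEB, had 127. *Tcf4* was 3.22-fold above *Tcf12* (95% CI, 3.07 to 3.38), and 5.80-fold by coding sequence. It was below *Tcf3* per kilobase of exon (ratio 0.805; 95% CI, 0.768 to 0.844) but above it per kilobase of longest transcript (ratio 1.88), so the order of these E proteins turned with the length used. Among the ID proteins *Id3* had 624 reads per kilobase of exon, *Id1* had 52.6 and *Id4* was listed at 0. *Id2* was 2.996-fold above *Id3* (95% CI, 2.81 to 3.20) and held 73.4% of the summed family level.

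*Spib* (ENSMUSG00000008193.13, chromosome 7, 44525993 to 44532071, minus strand) encodes an ETS factor that induces pDC genes. It had 71878 reads, 2288.5 CPM (95% CI, 2272 to 2305) and 25062 reads per kilobase of exon (95% CI, 24879.7 to 25246), and 49 of 12201 protein-coding genes with reads were higher. *Spib* was 61.1-fold above *Tcf4* per kilobase of exon (95% CI, 59.9 to 62.3) and 13.4-fold above *Id2* (95% CI, 13.0 to 13.8). The first ratio was 19.7 by longest transcript, 15.6 by coding sequence and 6.40 in CPM, and the second was 11.1, 8.60 and 15.8. The exon union of *Spib* (2868 bases) was 1.03 times its longest transcript, against 3.19 times for *Tcf4*. The close paralog *Spi1*, which encodes PU.1 and is needed in cDCs and other myeloid cells, had 6256 reads per kilobase, so that *Spib* was 4.01-fold higher (95% CI, 3.94 to 4.07). *Spic*, a factor of red pulp macrophages, had 839. *Spib* is also used by B cells, whose markers *Cd79a*, *Cd79b*, *Ms4a1* and *Ebf1* had at most 3.69 CPM, with *Pax5* listed at 0.

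*Runx2* (ENSMUSG00000039153.16, chromosome 17, 44495987 to 44814797, minus strand) encodes a Runt-domain factor that lets mature pDCs leave the bone marrow. It had 5944 reads, 189 CPM (95% CI, 184 to 194) and 673 reads per kilobase of exon (95% CI, 656 to 690), rank 3 of the 10. *Runx3* had 492 reads per kilobase and *Runx1* had 62.2. *Runx2* was 1.37-fold above *Runx3* (95% CI, 1.30 to 1.43) and 10.8-fold above *Runx1* (95% CI, 10.0 to 11.7). In CPM the first ratio was 2.42, and by coding sequence the second was 6.20. Their shared partner *Cbfb*, which stabilises Runt-domain factors on DNA, had 402 reads per kilobase, 0.598 of the *Runx2* level (0.235 in CPM). An opposite-strand gene, *Runx2os1*, overlapped 5.87% of the *Runx2* exon bases, and without strand its reads cannot be told apart from those of *Runx2*.

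**Figure D3:**
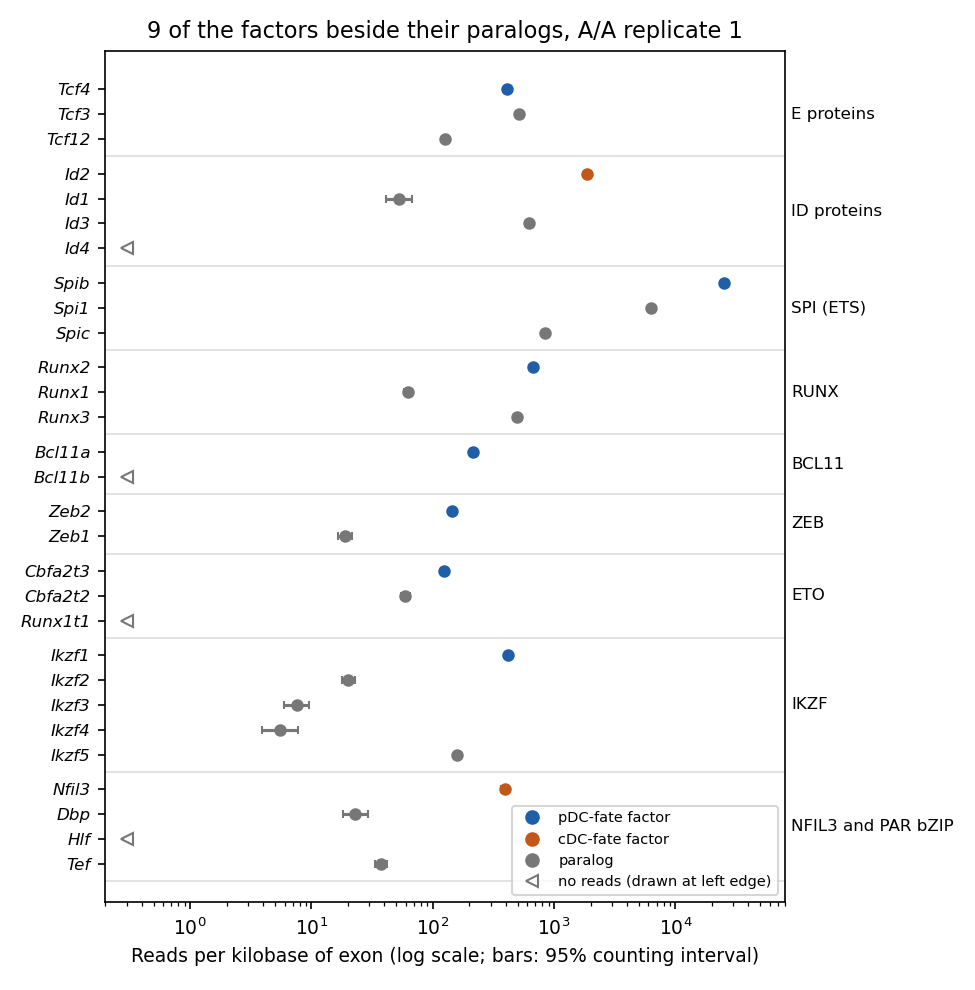
Reads per kilobase of exon (horizontal log axis) of 9 factors (blue, pDC-fate; orange, cDC-fate) and their paralogs (grey) by family, with 95% counting intervals; open triangles at the left edge mark genes without reads. The factor is the highest of its family in 8 of the 9 families, and *Tcf4* lies below *Tcf3* on this scale.

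*Bcl11a* (ENSMUSG00000000861.15, chromosome 11, 24078056 to 24174123, plus strand) encodes a zinc finger factor that acts upstream of *Tcf4* and *Id2*. Its 2845 reads gave 90.6 CPM (95% CI, 87.3 to 94.0) and 216 reads per kilobase of exon (95% CI, 208 to 224). The paralog *Bcl11b*, a T cell factor, was listed at 0, and of the other T cell markers *Trac* had 0.509 CPM and *Cd3e*, *Cd3d* and *Cd3g* were listed at 0. *Zeb2* (ENSMUSG00000026872.17, chromosome 2, 44983632 to 45117395, minus strand) encodes a zinc finger repressor needed for pDCs and cDC2s. Its 2856 reads gave 90.9 CPM (95% CI, 87.7 to 94.3), which could not be told from *Bcl11a*, but its exons are longer and the level per kilobase was lower at 143 (95% CI, 138 to 149). *Zeb2* was 7.58-fold above its paralog *Zeb1* (95% CI, 6.55 to 8.81), which had 18.9 reads per kilobase, and 14.7-fold above it in CPM. Both *Bcl11a* and *Zeb2* have exon unions about as far from their longest transcripts, 2.20 and 2.19 times as long.

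*Cbfa2t3* (ENSMUSG00000006362.16, chromosome 8, 122625141 to 122699109, minus strand) encodes the ETO-family corepressor that binds TCF4 and restrains *Id2*. It was the lowest of the 10 per kilobase of exon, with 1034 reads, 32.9 CPM (95% CI, 31.0 to 35.0) and 123 reads per kilobase (95% CI, 116 to 131). It was 2.09-fold above *Cbfa2t2* (95% CI, 1.87 to 2.32), and *Runx1t1*, the remaining family member, was listed at 0. *Ikzf1* (ENSMUSG00000018654.17, chromosome 11, 11685003 to 11772926, plus strand) encodes Ikaros, a zinc finger factor required for pDC development. Its 2388 reads gave 76.0 CPM (95% CI, 73.0 to 79.1) and 413 reads per kilobase of exon (95% CI, 397 to 430). *Ikzf1* held 68.3% of the summed IKZF level, 20.5-fold above *Ikzf2* (95% CI, 17.9 to 23.6) and 54.8-fold above *Ikzf3* (95% CI, 42.9 to 71.1). The lowest values on the other scales were 10.1 for *Ikzf2*, by coding sequence, and 32.3 for *Ikzf3*, by longest transcript. *Ikzf5*, the next highest at 159 reads per kilobase, shares 84.5% of its exon bases with an opposite-strand gene and is uncertain.

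*Zbtb46* (ENSMUSG00000027583.13, chromosome 2, 181387762 to 181459426, minus strand) encodes a zinc finger factor of committed cDCs. It had 3319 reads, 106 CPM (95% CI, 102 to 109) and 390.1 reads per kilobase of exon (95% CI, 377 to 404). *Nfil3* (ENSMUSG00000056749.7, chromosome 13, 52967209 to 52981073, minus strand) encodes a basic leucine zipper repressor, and its 799 reads gave 25.4 CPM (95% CI, 23.7 to 27.3). Per kilobase *Nfil3* had 394 (95% CI, 368 to 423), and its ratio to *Zbtb46* of 1.01 (95% CI, 0.935 to 1.09) left no difference beyond counting error on that scale, whereas *Zbtb46* was 1.59-fold above *Nfil3* by longest transcript and 3.20-fold by coding sequence. *Zbtb46* was 2.72-fold above *Zeb2* (95% CI, 2.59 to 2.86), a factor of the pDC group, and 1.16-fold above it in CPM. *Nfil3* was 10.6-fold above *Tef* (95% CI, 9.25 to 12.1) and 17.1-fold above *Dbp* (95% CI, 13.4 to 22.2), which encode activators that bind the same sites, and *Hlf* was listed at 0. These ratios fell with the other scales, to as low as 1.78 for *Tef* and 8.15 for *Dbp*, both by coding sequence. *Dbp* shares 18.0% of its exon bases with an opposite-strand gene. The mature dendritic cell markers were among the most abundant transcripts, and *Clec9a* had 73.9 CPM and 705 reads per kilobase of exon. Whether these reads came from the stimulated pDCs or from other cells was not tested. The part of other cells in the *Zbtb46* and *Nfil3* levels was not tested either.

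The order of the 10 factors was set out on 4 scales, CPM and reads per kilobase of all exons, of the longest transcript and of the coding sequence. Of the 45 pairs of factors, 34 kept their order on the 3 length scales with intervals apart each time, and 30 did so on all 4 scales. *Spib* ranked first on all 4, and *Id2* took rank 2 on the 3 length scales and took rank 4 in CPM. *Cbfa2t3* ranked last on the 3 length scales, and *Nfil3* ranked last in CPM. By coding sequence, however, the intervals of *Cbfa2t3* (556) and *Nfil3* (576) overlapped. With intervals apart, 3 pairs changed order between length scales, namely *Tcf4* with *Runx2*, *Bcl11a* with *Nfil3* and *Zeb2* with *Nfil3*.

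**Figure D4:**
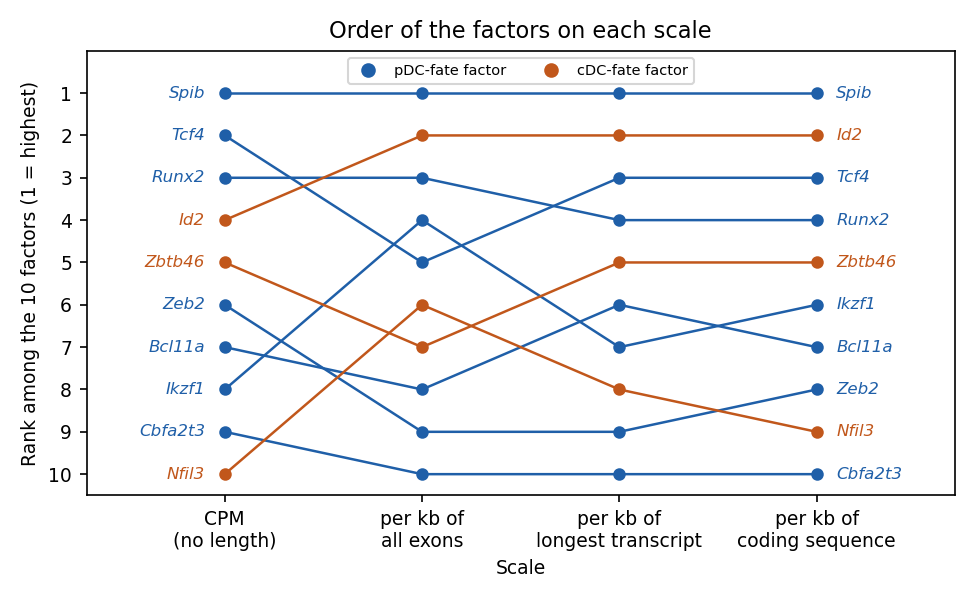
Rank of the 10 factors (vertical axis, 1 is the highest) on 4 scales (horizontal axis); blue marks pDC-fate and orange cDC-fate factors. *Spib* is first on every scale, *Id2* moves from rank 4 in CPM to rank 2 on the 3 length scales, and *Tcf4* moves between ranks 2 and 5.

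Other genes of the network were read from lists. All 8 partners and corepressors had reads, with a median of 245 reads per kilobase of exon. *Hdac1*, which encodes a histone deacetylase recruited by corepressors such as CBFA2T3, was the highest at 2835. All 19 other dendritic cell factors had reads, with a median of 410.4. *Irf8*, required by pDCs and cDC1s, had 13209 reads per kilobase and was 93.2-fold above *Irf4* (95% CI, 86.5 to 101), the factor of cDC2s, which had 142; the ratio was 184 by longest transcript and 134 in CPM. *Batf3*, needed for cDC1s, had 48 reads and 30.1 reads per kilobase, and *Klf4*, a cDC2 factor, had 31.8. *Relb*, an NF-κB subunit used by cDCs, had 5373, so that *Spib* and *Irf8* were above it and *Id2* was below it.

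The median of the pDC programme lay above that of the cDC programme. The pDC list held *Siglech* and *Bst2*, on which the cells were gated, so this order is not independent of the sort. It also held *Irf8*, required by cDC1s too, and *Irf7*, which the paper names as an interferon signature gene. All 20 pDC programme genes had reads, with a median of 1620.4 reads per kilobase of exon, from 10.9 for *Dntt* to 72461 for *Ly6d*. The cDC programme list had 18 genes with reads of the 19 read by a unique symbol, with a median of 267 over the 19. Within that list the mature dendritic cell genes *Ccr7* (58572) and *Ccl22* (18194) were the highest, while *Xcr1* had 12.1 and *Cd209a* was listed at 0. The median percentiles were 94.2 for the pDC programme and 75.9 for the 18 cDC programme genes with reads. They were 81.4 and 80.9 for the pDC-fate and cDC-fate factors. These lists are described and not tested. Macrophage, neutrophil and erythroid markers had at most 26.0, 14.7 and 2.83 CPM. Per kilobase of exon their highest values were 752 (*C1qb*), 664 (*S100a8*) and 110 (*Hba-a1*). On that scale *C1qb* and *S100a8* were above *Tcf4* (410.5).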

How the data were processed

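Splenic pDC mRNA libraries were sequenced by the authors on an Illumina system. The submitters' processing notes name HISAT2, StringTie and the builds mm8 and mm10 without roles, and the paper's methods name DESeq2; annotation and strand setting are not given in the sources used here. The file the authors deposited gives each gene a normalized signal of no stated unit. All 17664 nonzero values (100%) were whole multiples of 1.19 within a tolerance of 0.01, so whole reads were recovered by division. The run was paired-end, and whether such a unit stands for a read or a read pair is not stated. The depth, summed over the listed genes, was 31408298 reads, and the floor of 3 reads was 0.0955 CPM. Gene IDs (99.7%) were matched to GENCODE M21 for exon lengths, and the 10 factors had identical coordinates. CPM was scaled to 1000000, and ratios between single genes carry exact Clopper-Pearson intervals. At most 0.475% of 50-base windows of a factor's transcripts occurred in another gene. The members, lists and motifs were chosen with earlier results of these data known. The genes named are the 10 factors and genes of those lists, some of which are not reported here; *Itgam*, which has 2 rows, was left out. The scripts were tested on simulated data with Python 3.11.15, numpy 2.4.6, pandas 2.3.3, scipy 1.17.1 and matplotlib 3.10.9. Alternatives were other lengths, CPM, other percentile bases and a pseudocount of 0.1 in place of 1.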

Additional observations from a re-analysis of the deposited data

How the results depend on the processing

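With 1 library, no replicate could be left out and no spread between samples was measured. No paired analysis was possible because a single library had been read. The ratio of *Tcf4* to *Id2*, 0.220 per kilobase of exon, was 0.566 by longest transcript and 0.553 by coding length, and turned to 2.47 in CPM, where length is left out. The ratio of the pDC-fate to the cDC-fate median, 1.04, was 0.861 in CPM, 0.760 by longest transcript and 0.807 by coding length. It was below 1 on each of these alternatives. Per kilobase of exon its crosswise range of 0.940 to 1.11 held 1, so no direction was set there. The median percentile of the pDC-fate factors, 81.4, was 88.8 in CPM, 79.5 by longest transcript, 93.8 over all genes and 77.3 among genes with at least 10 reads. That of the cDC-fate factors, 80.9, was 90.5, 83.2, 93.6 and 76.7 under the same alternatives. The last 2 bases move percentiles by construction, since they add or remove low genes. A pseudocount of 0.1 moved the 10 log2 levels by at most -0.05. The share of a factor in its family moved most for *Tcf4*, by 34.4 percentage points in CPM. No factor had over 10% of its exon bases under opposite-strand exons, so leaving such factors out gave no other value.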
